A study of Rattus norvegicus with 4 samples.

Results

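The H3K27me3 peaks of uninjured rat sciatic nerve that are centred inside exons and untranslated regions (UTRs) number 1421, or 1.10% of the 129550 peaks in the combined list. They were taken as the rows whose detailed annotation begins with exon, 5' UTR or 3' UTR, and the text "exon n of m" gave the position of the exon in its transcript. The tissue was sciatic nerve of male Sprague Dawley rats at postnatal day 42, from the side that had a skin incision as a sham operation, taken 1 day after the nerve of the opposite limb was cut. Chromatin was digested with micrococcal nuclease, and the groups were 2 H3K27me3 libraries and 2 libraries of the matching input. The transected side was not analysed here. The deposited peak list, named as combined, is on the rat assembly rn5 and gives each peak 1 score. It holds no value per library, so no replicate error can be given, no test was run, and differences between sets of peaks are descriptions of this list.

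H3K27me3 is the trimethylation of histone H3 at lysine 27 that Polycomb repressive complex PRC2 places on the chromatin of silenced genes. At genes that control development it often lies as a broad domain over the promoter and part or all of the gene body, so that an exon can be covered because it sits inside such a domain. Schwann cells share the nerve with connective tissue, vessel and immune cells. In such a mixed tissue, a lower score because fewer cells carry the mark cannot be told apart from a weaker mark per cell.

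No genome of assembly rn5 was used here, so the exon sequences under the peaks are not shown. Promoter sequences were taken from RefSeq on the newer assembly GRCr8 for the 6 genes with the highest-scoring exon or UTR peak that also contains the transcription start site (TSS) and that have an entry. Each line gives the last 30 bases before the start, 5′ to 3′ on the strand of the gene, with CG dinucleotides in capitals, since CG-rich DNA is where PRC2 is known to act in mammals.
Olig3: tggacctcacatttttttttttttttggta
Vax1: ttttttctctttttttccttttttttgcct
Foxi3: gctgcCGctcCGcaccaaccctCGgcctcc
Tbx4: gagatcaagggccCGctccacaccCGggat
Ccno: tacttagagctgCGcctgcagCGggaccCG
Wnt1: ggtgagcccCGaCGgctagcctgtcagctc
The lines differ in CG content. Foxi3 and Ccno have 3 CG each, Tbx4 and Wnt1 have 2 each, and Olig3 and Vax1 have 0 and carry runs of T in their place. Of 19005 protein-coding promoters in the table, 65% hold a CG in these 30 bases. Over the whole window of 300 bases (250 before the start and 50 after it), the CG count was 33 at Ccno, 31 at Foxi3, 25 at Wnt1, 20 at Tbx4, 17 at Vax1 and 6 at Olig3, beside a median of 12 over all these promoters. Olig3 thus had the highest score of the 1421 peaks and a promoter window with fewer CG than the median. The table covers 74.2% of the genes with an exon or UTR peak, under the 80% needed, so a comparison of promoter content over the whole set is void.

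Most of the peaks lay in coding parts of genes. The exon class held 894 peaks, the 3' UTR class 431 and the 5' UTR class 96. By position, 578 peaks lay in middle exons, 529 in the last exon, 207 in the first exon and 107 in the only exon of single-exon transcripts. The last-exon peaks were mainly 3' UTR peaks (377 of 529), and of the 5' UTR peaks 72 were in the first exon. These counts were not adjusted for the number and length of the exons and UTRs in each class. The authors' promoter-TSS class takes precedence near a start site, and the exon or UTR peak closest to a TSS was centred 101 bp from it. The 1014 peaks at transcription termination sites form a class of their own and are not among the 1421.

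The exon and UTR peaks were wider and scored higher than the list as a whole. Their median width was 241 bp (95% interval of the median 230 to 276 bp) against 191 bp over all peaks, and their median score 6.19 (5.57 to 7.22) against 4.54. Of them 25.1% were at least 1 kb wide (95% Wilson interval 22.9 to 27.4%), against a background of 10.9% of all peaks. At least 5 kb was reached by 74 of them (5.21%), against 1.01% of all peaks, and at least 10 kb by 17 (1.20%), against 0.259%. The smallest width in the list, 150 bp, was found in 34.5% of the exon and UTR peaks and in 45.2% of all peaks. Scores in the top 25% of the list (9.9 or higher) belonged to 41.8% of the exon and UTR peaks, against 25.1% of all peaks. Of the promoter-TSS peaks 27.5% were at least 1 kb wide, 4.18% at least 5 kb and 0.665% at least 10 kb, and 50.2% had scores in that top 25%. The exon and UTR peaks held 2.88% of the summed score on 1.10% of the peaks, and promoter-TSS peaks 3.99% on 1.63%. These intervals treat peaks as independent, which neighbouring peaks of 1 gene are not. Width and score rose together across the 1421 peaks (Spearman rho 0.957, peaks sharing the same libraries), so the score adds little to the width as a ranking.

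**Figure D1:**
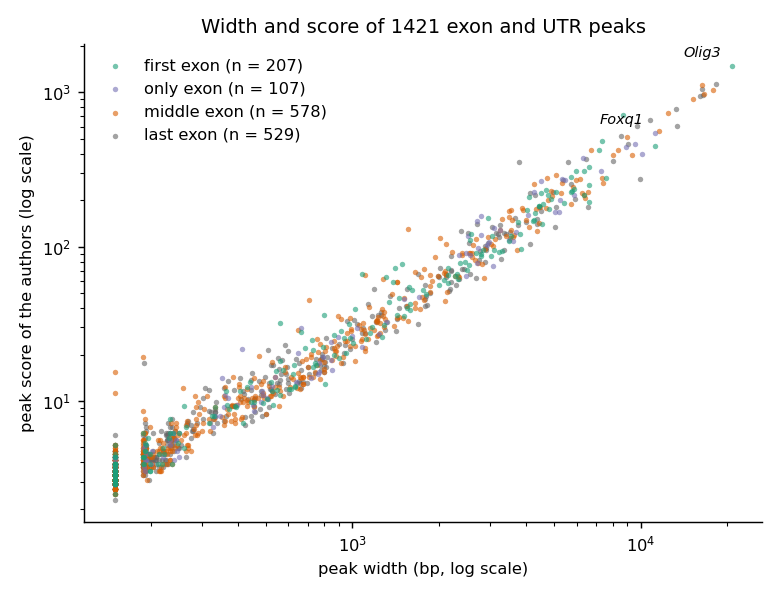
Peak width (x axis, bp, log scale) against the authors' peak score (y axis, log scale) for the exon and UTR peaks, 1 point per peak, coloured by the exon's position in its transcript. The points follow a single rising band (Spearman rho 0.957) from the column of peaks at 150 bp up to Olig3 at 20696 bp.

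Position in the transcript went with width. The median width of first-exon peaks was 630 bp (95% interval of the median 489 to 912 bp) and only-exon peaks 525 bp (362 to 846 bp). Middle-exon peaks had 228.5 bp (197 to 265 bp) and last-exon peaks 208 bp (192 to 228 bp). For comparison, intron peaks had a median of 192 bp, promoter-TSS peaks 392 bp, peaks at transcription termination sites 234.5 bp and intergenic peaks 190 bp. The share at least 1 kb wide was 40.6% in first exons, 37.4% in only exons, 23.0% in middle exons and 18.9% in last exons. The median score was 16.5 in first exons, 14 in only exons, 5.36 in middle exons and 4.74 in last exons. First-exon and only-exon peaks thus stood above the promoter-TSS peaks in median score (9.9), and last-exon peaks lay near the intron peaks (4.54). Wide peaks were still more frequent in last exons than in introns, where 11.9% were at least 1 kb wide. First introns lay closer to last exons, with 16.1% at least 1 kb wide and medians of 206.5 bp and a score of 5.16. Later introns had 9.23%, 189 bp and 4.33. At least 5 kb was reached by 3.78% of last-exon and 1.20% of intron peaks.

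**Figure D2:**
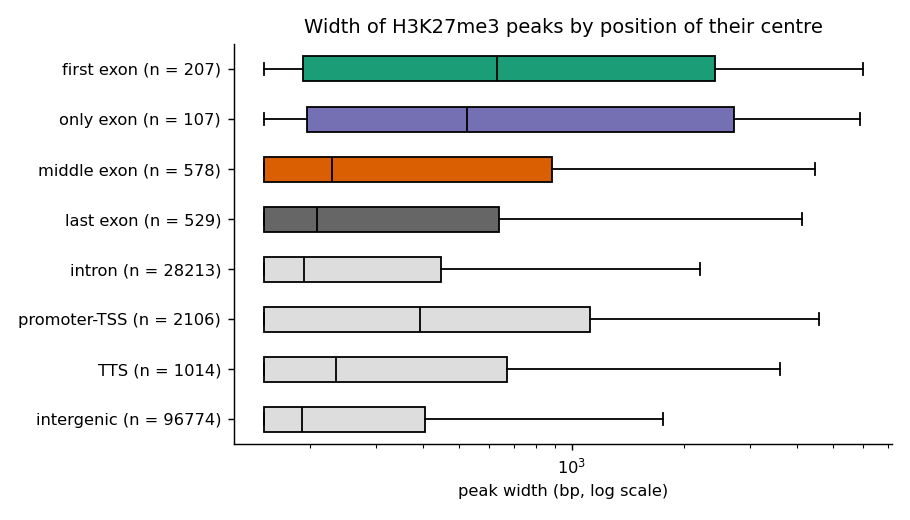
Peak width (x axis, bp, log scale) for exon and UTR peaks by exon position (coloured) and for the other annotation classes (grey). Boxes span the quartiles with the median as a line, and whiskers run from the 5th to the 95th percentile. First-exon and only-exon boxes reach furthest to the right, with upper quartiles of 2414 and 2710.5 bp.

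The UTR classes stood at opposite ends. The 5' UTR peaks had medians of 880 bp in width and 25.5 in score, and 45.8% of them were at least 1 kb wide. For the 3' UTR peaks the medians were 200 bp and 4.54, and 18.6% were at least 1 kb wide. Within last exons, the coding part had wider peaks than the 3' UTR, with medians of 331 bp (146 peaks) and 191 bp (377 peaks). The 40 peaks in the 3' UTR of single-exon transcripts were of another size, with medians of 712 bp and 21.05.

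Distance from the TSS differed between the positions, and its part in the order of widths was not tested apart from the bins below. The median distance from the peak's centre to the nearest TSS was 343 bp for first-exon peaks, 1015 bp for only-exon peaks, 7988.5 bp for middle-exon peaks and 8518 bp for last-exon peaks. Over all 1421 peaks the score fell with this distance (Spearman rho -0.284, peaks sharing the same libraries). Of the middle-exon peaks centred 1 to 5 kb from a TSS 31.6% were at least 1 kb wide, and of those 20 to 100 kb away 17.6% were. Last-exon peaks gave 25% and 16.7% at the same distances. First-exon peaks at 1 to 5 kb gave 26.7% of 30. Under 1 kb the shares were 42.9% of 177 first-exon, 37.5% of 48 middle-exon and 40% of 15 last-exon peaks. In both bins under 5 kb the shares thus lay closer together than over all peaks of each position. Median widths of first, middle and last exons were 731, 375 and 567 bp under 1 kb. At 1 to 5 kb they were 447, 430.5 and 250.5 bp. Within middle exons, peaks of exon 2 had a median width of 360.5 bp, those of exon 3 had 383 bp, those of exons 4 to 6 had 219 bp and those of exon 7 or later had 187 bp.

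Peaks in exons and UTRs were also wider than intron peaks at like distances, except at the farthest. Under 1 kb from a TSS, 38.4% of 292 exon and UTR peaks and 27.4% of 1465 intron peaks were at least 1 kb wide. At 1 to 5 kb the shares were 31.3% of 409 exon and UTR peaks and 22.5% of 5445 intron peaks. At 5 to 20 kb they were 17.1% of exon and UTR peaks and 9.50% of intron peaks. At 20 to 100 kb they were 17.1% of exon and UTR peaks and 8.09% of intron peaks. Over 100 kb away the order was the other way, with 2.38% of only 42 exon and UTR peaks and 5.74% of 4162 intron peaks. The shares of the genome in exons and introns at each distance were not computed.

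**Figure D3:**
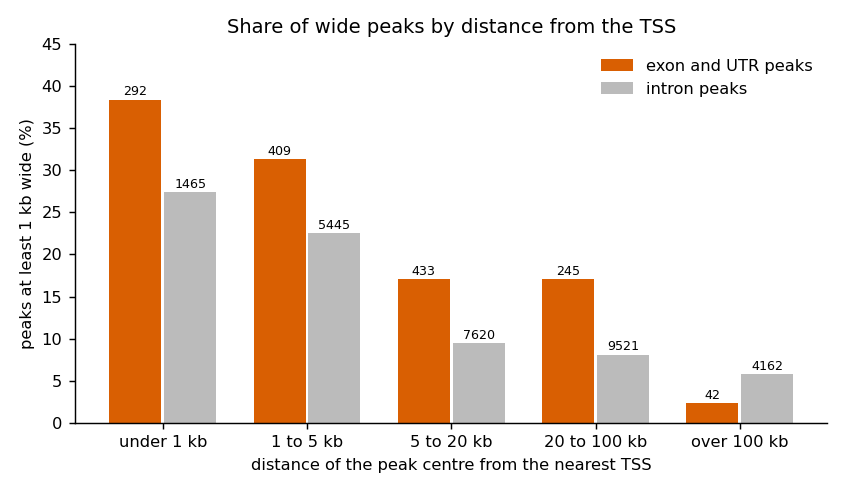
Share of peaks at least 1 kb wide (y axis, %) by distance of the peak centre from the nearest TSS (x axis), for exon and UTR peaks (orange, left bar) and intron peaks (grey, right bar), with the number of peaks above each bar. The orange bar is the higher in each bin up to 100 kb, from 38.4% under 1 kb to 17.1% at 20 to 100 kb.

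A peak centred in an exon can still cover the start of the gene. Of the 1421 peaks 155 contained the nearest TSS (10.9%, Wilson interval 9.39 to 12.6%). This compares with 1.15% of all peaks, 1.84% of intron peaks and 27.7% of promoter-TSS peaks. The count was 92 of 207 in first exons, 22 of 107 in only exons, 32 of 578 in middle exons and 9 of 529 in last exons. Peaks centred in a last exon and reaching a start site were thus few. Apart from Vax1, Foxi3 and Wnt1, described below with their values, the last-exon peaks that contained a TSS were, named here because they are few and after their values were seen, those of Nhlh2 (9717 bp, score 605), a neuronal helix-loop-helix factor, Nkx2-6 (6479 bp, 371.9), a homeobox factor of pharynx and heart, the neuropeptide gene Sst (5930 bp, 203.6), the somatostatin receptor gene Sstr1 (4355 bp, 139.4) and Ccdc166 (3226 bp, 115.3). The ninth, in the 3' UTR of the adhesion gene Mpzl2 (5041 bp, 133.9), contained the TSS of its neighbour Mpzl3.

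In every position the highest score belonged to a developmental transcription factor. In first exons the highest score belonged to Olig3, a helix-loop-helix factor of spinal cord progenitors, with 1487.8 over 20696 bp (chr1:16334254-16354950). The file calls this centre 3' UTR of exon 1 of 2, 1034 bp from the TSS. It was followed by Ccno (chr2:63892966-63901671, 8705 bp, score 709.2, 5' UTR), a cyclin-family gene of ciliated cells, and by the craniofacial homeobox gene Alx1 (chr7:44791851-44799217, 7366 bp, 483.1). Kirrel2, an adhesion gene of the immunoglobulin superfamily, had 11189 bp and 449.5 in exon 1 of 15.

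In middle exons the 4 highest scores were all at transcription factors. Tfap2b, an AP-2 factor of neural crest and kidney, had 1107.7 over 16372 bp in exon 2 of 8 (chr9:24270088-24286460). A separate peak of 13361 bp with a score of 603.3 lay in its last exon, 27899 bp from the TSS. Isl1, a LIM homeobox factor of motor neurons and heart, had 1030.1 over 17899 bp in exon 5 of 6 (chr2:66865022-66882921). This peak did not contain the TSS, 9965 bp from its centre. Sox17, a factor of endoderm and blood vessels, had 970.5 over 16583 bp in a 5' UTR of exon 3 of 4 (chr5:19670310-19686893). Tbx4, a hindlimb and lung factor, had 911.5 over 15168 bp in exon 2 of 9 (chr10:73231700-73246868), and a peak of the smallest width with a score of 3.51 in its 3' UTR.

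Last exons were led by homeobox, forkhead and paired-box genes. Vax1, a gene of the ventral forebrain and eye, had 1131 over 18201 bp in exon 3 of 3 (chr1:287687016-287705217). Pax1, a gene of the developing vertebral column and thymus, had 1057.8 over 16390 bp in the 3' UTR of exon 5 (chr3:147999396-148015786), and this peak ended short of the TSS, 11602 bp from its centre. Foxi3, a forkhead gene of ectodermal placodes, had 962.5 over 16436 bp in exon 2 of 2 (chr4:163550157-163566593). Shox2, a limb and heart pacemaker gene, had 940.6 over 16132 bp in the 3' UTR of exon 6 (chr2:183462150-183478282). Vax1 and Foxi3 contained their TSS, and Shox2 and Pax1 did not. The Shox2 peak ended only just short of it, with its centre 8205 bp from the TSS.

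In single-exon genes the highest scores belonged to the forkhead gene Foxq1 (chr17:36104234-36115433, 11199 bp, score 548.9), Pou3f2 (9554 bp, 464.5), a POU factor of neurons that is also made in Schwann cells before myelination, and Olig1 (8897 bp, 440.6), an oligodendrocyte lineage factor. Pom121l2 had 10154 bp and 401.4. Among 5' UTR peaks, Ltk (7165 bp, 422.6), a receptor tyrosine kinase gene, and C1qtnf4 (6626 bp, 326.5), which encodes a secreted protein, followed Sox17 and Ccno.

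The genes were named from the transcript that holds the exon, since the gene of the nearest TSS was another one for 262 of the 1421 peaks (18.4%). This was the case for 161 last-exon peaks (30.4%), 100 middle-exon peaks (17.3%) and 1 peak of a first or only exon. Of the 262 peaks 49 were at least 1 kb wide. The highest-scoring, named after their values were seen, were in the last exon of Prrt4 (9034 bp, 459.4), which the file lists under Rbm28, in exon 30 of 41 of the muscle kinase gene Speg (6161 bp, 274.3), listed under Gmppa, and in exon 5 of 26 of the kinase gene MAST1 (5345 bp, 258.5), listed under Mir3550. Next came exon 24 of 25 of Shank1 (6544 bp, 224.8), a scaffold gene of synapses listed under RGD1309036. Trpm2, a cation channel gene, had 6410 bp and 206.3 in exon 20 of 32, listed under Lrrc3. A count by the nearest gene would give these exons to the neighbours.

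In all, 1110 genes held an exon or UTR peak, among them 4.77% of the 23154 protein-coding genes of the RefSeq table, and 219 held 2 or more. Of the 1110 genes 31.2% were also named by a promoter-TSS peak, against 18.4% of the 10647 genes named by any peak. The share of genes with such a peak lay above 4.77% in 7 of the 9 gene groups. It lay below in chemosensory receptors and in zinc finger proteins, taken as symbols in Zfp or Znf. Of the developmental transcription factors outside the homeobox family 52 of 234 held one (22.2%), of the G-protein-coupled receptors 54 of 253 (21.3%), of the ion channels and transmitter receptors 46 of 260 (17.7%) and of the homeobox factors 34 of 198 (17.2%). The counts were 41 of 252 (16.3%) for secreted ligands and antagonists, 20 of 154 (13.0%) for matrix proteins and 21 of 184 (11.4%) for adhesion molecules. Zinc finger proteins had 5 of 467 (1.07%) and chemosensory receptors 11 of 1434 (0.767%). Exon number and length differ between these families and were not adjusted for. All 1421 peaks were annotated on rn5 to transcripts with NM identifiers, while the 23154 genes are those of GRCr8. Genes with no such transcript on rn5 may thus count as lacking a peak, which was not adjusted for either. The groups were set by symbol and are not complete families, and the homeobox genes Gsc2 and Mixl1, for example, were not counted in theirs. Symbols can also take in other genes, and the homeobox group counted the paired-box gene Pax1.

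Among the groups, homeobox peaks were the widest. The medians of their 43 peaks were 2192 bp and a score of 86.8, and 23 of the 43 (53.5%) were at least 1 kb wide. Of the 43 peaks 26 lay in last exons. Other developmental transcription factors had 66 peaks with medians of 513 bp and 14.2, and 42.4% were at least 1 kb wide. These transcription factor groups together made up 109 of the 1421 peaks (7.67%), 25 of the 74 peaks of at least 5 kb (33.8%) and 14 of the 17 of at least 10 kb. Genes in none of the 9 groups had 1038 peaks with medians of 223 bp and 5.16, and 32 of these peaks reached 5 kb.

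Secreted ligands and antagonists had medians of 303 bp and 8.04 over 53 peaks. Wnt1, a patterning ligand of the midbrain, scored 663.6 over 10765 bp centred in its 3' UTR (chrX:114973060-114983825), a peak that contained the TSS. Beside it Wnt10b had 6720 bp and 425.1, centred in exon 5 of 6. The older assembly rn5 places both on X, and GRCr8 puts them on chromosome 7. Of the 32 exon and UTR peaks that rn5 places on X, 6 belong to genes that GRCr8 places on chromosome 7, so a count for X from this list includes autosomal genes.

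The receptor, channel, adhesion and matrix groups had median scores between 6.6 and 11.05. Over 73 peaks of G-protein-coupled receptors the medians were 362 bp and 9.69, led by the adrenergic receptor of fat tissue Adrb3 (6364 bp, 307.6) and the ghrelin receptor Ghsr (5781 bp, 229.8), both in exon 1. Ion channels and transmitter receptors had 62 peaks with medians of 233.5 bp and 6.6, led by the GABA receptor subunit gene Gabrb1 (6257 bp, 223.8, exon 3 of 9) and by Trpm2. Adhesion molecules had 42 peaks with medians of 429 bp and 11.05, led by Kirrel2 and the tight junction gene Cldn3 (6337 bp, 378.1). Matrix proteins had 31 peaks, of which 19 lay in middle exons, with medians of 305 bp and 7.22. They were led by Mmp9, a matrix-degrading protease (8333 bp, 421.6, exon 4 of 13), and Hapln4, a hyaluronan link protein (7408 bp, 258.5, exon 3 of 5).

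The chemosensory receptor group and the zinc finger group (symbols in Zfp or Znf only) had no score above 25.6. Symbol patterns left some genes of these families out. Among those left out were the taste receptor gene Tas2r7l (347 bp, 8.04) and the zinc finger gene Scrt1 (5390 bp, 268.4). The 11 peaks of the chemosensory receptor group, all in single-exon genes, had medians of 245 bp and 5.57. They scored between 3.3 and 17.7, with Olr1653 (766 bp, 17.7) and Olr1646 (638 bp, 13.2) highest. The 9 peaks of the zinc finger group had medians of 490 bp and 9.49 and scored between 3.51 and 25.6. The highest was in the 5' UTR of Zfp385b (983 bp), and Zfp316 had 1103 bp and 21.2. None of these 20 peaks contained a TSS or reached 5 kb.

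**Figure D4:**
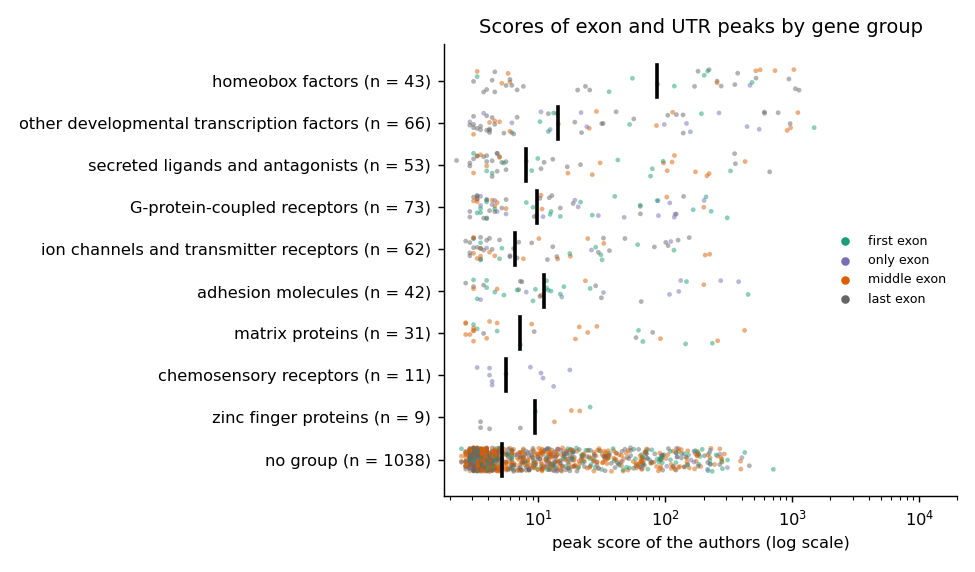
Peak scores of the authors (x axis, log scale) by gene group, 1 point per exon or UTR peak, coloured by exon position, with the median of each group as a black bar. The homeobox median of 86.8 lies to the right of all others, and chemosensory receptors and genes of no group lie lowest, at 5.57 and 5.16.

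Neighbouring peaks were common. Of the exon and UTR peaks 74.2% had another peak within 1000 bp, against 65.3% of intron peaks and 64.9% of all peaks, and the median gap to the next peak was 455 bp, against 593 bp for intron peaks. The 219 genes with 2 or more exon or UTR peaks held 530 of the 1421, and 17 genes held 4 or more. Kcnj6, a potassium channel gene, had the most, with 7 peaks in the 3' UTR of its last exon over 10116 bp (chromosome 11). The widest of them had 1087 bp and a score of 29.7, and the others scored between 2.68 and 13. All 7 are listed under Dyrk1a in the file, with centres over 100 kb from that gene's TSS. Flt1, a receptor for vascular endothelial growth factor, had 6 peaks of at most 245 bp with scores of 3.51 to 7.22 over 85945 bp. Apc2, a neuronal relative of the tumour suppressor Apc, had 5, of which 4 lay in the last exon, with widths of 233 to 785 bp, and the fifth in exon 4 with 1022 bp.

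Apart from Apc2, 6 genes had 5 peaks each, and they were named after their values were seen. Six4, a homeobox gene of muscle and sensory organs, had 5 peaks in the 3' UTR of exon 5 over 3277 bp, with scores between 4.54 and 25.4. Sim1, a factor of hypothalamic neurons, had 5 in its last exon over 2628 bp, 74 to 77 kb from the TSS, with scores between 3.09 and 6.39. Celsr3, an atypical cadherin gene of axon guidance, had 3 peaks in exon 1 that scored 9.08, 12.6 and 3.92 a peak of 4774 bp centred in exon 2 that scored 201.1, and 1 in exon 8 that scored 10.5. Its peaks in exon 1 thus scored lower than that in exon 2. Dmc1, a recombinase gene of meiosis, had 5 over 28767 bp with scores between 2.89 and 30.1, and Shank1 had 5 over 33149 bp with scores between 4.33 and 224.8. The 5 peaks of Hapln4 scored between 28.9 and 258.5.

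**Figure D5:**
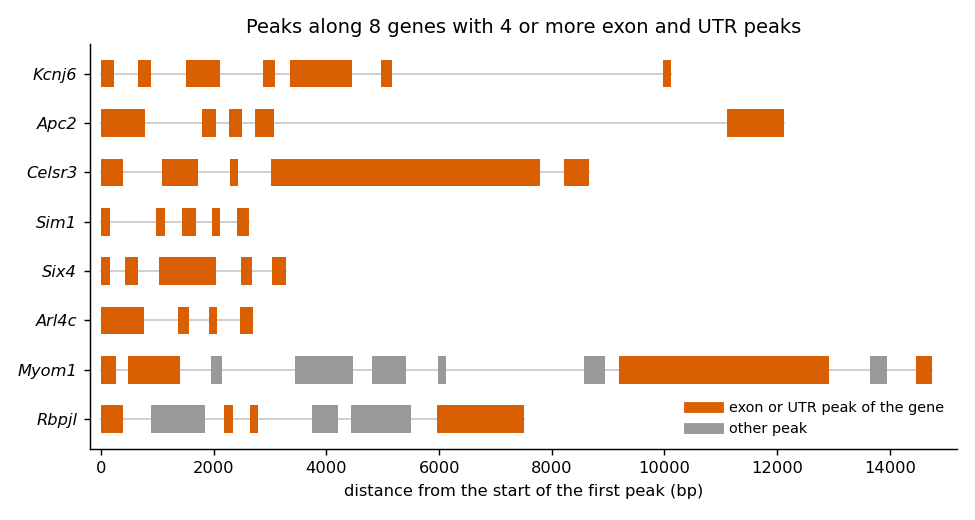
Peaks along the 8 genes with 4 or more exon and UTR peaks whose peaks span at most 15 kb, drawn to scale from the start of the leftmost peak (x axis, bp, in genome order). Orange boxes are peaks in the gene's own exons or UTRs and grey boxes other peaks. Kcnj6 shows 7 short boxes with none over 1087 bp, and Celsr3 a single box of 4774 bp among short ones.

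Some transcripts stand at more than 1 place in rn5. Peaks imply more than 1 TSS position for 18 of the 1115 transcripts with an exon or UTR peak, and 32 peaks belong to these. Hapln4 is an example that can be seen in the coordinates, with peaks in exon 3 of the same transcript at chr16:20933884-20941292 and at chr16:21003258-21003905.

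Among marker genes of the nerve's own cell types, peaks of several sizes were found. Of 10 Schwann cell markers 3 had an exon or UTR peak, Sox10 and Mbp among them, beside 4.77% of all protein-coding genes. Sox10, the lineage factor of Schwann cells, scored 25.2 over 1080 bp in exon 3 of 5 (chr7:120395085-120396165), centred 1715 bp from the TSS and not reaching it. Mbp, a myelin protein gene, had 2 peaks of the smallest width in its last exon, each with a score of 3.09. No marker of fibroblasts and perineurial cells had one (0 of 7), and 1 of 5 endothelial markers (Cldn5, 3107 bp, 132.4) and 1 of 5 leukocyte markers (Cd3e, 1203 bp, 33.2) did. A list of a silencing mark does not measure which cells are present, so the tissue label cannot be checked from it. Cdkn2a, a cell cycle inhibitor gene, scored 17.5 over only 189 bp in the 3' UTR of its last exon (chr5:111557020-111557209).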

How the data were processed

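The submitters' processing notes name CASAVA 1.8.2, Bowtie and HOMER. Per the file headers, a combined list of H3K27me3 sham peaks was annotated with HOMER against rn5. How peaks were called, whether input was subtracted and how libraries were joined is not given in the sources used here. Each score is deposited as the authors' own value with no stated scale, beside distances in bp. Depth per library is unknown, and scores were used only to describe and rank peaks within the list.

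A peak contains a TSS where the distance to it is at most the width divided by 2. Exon position was read from the annotation, which gives 1 transcript per peak. Symbols came from the list's own pairs of transcript and gene for 1394 peaks and from RefSeq (GRCr8) for 27. Gene groups follow symbol patterns, so some genes of a family are left out, and a gene can be in 2 groups. Shares have 95% Wilson intervals and medians exact order-statistic intervals (Python 3.11.15, pandas 2.3.3, statsmodels 0.14.6), which cover counting error only. The reading of positions was run on simulated annotation text of the same format, labelled by the same rule. This checks the code only and not the annotation of the real peaks. Named genes are, per position or UTR class, the 4 with the highest score and the 2 widest, the 2 highest per group, the 3 with most peaks, and a fixed few. The members and lists were chosen with earlier results of these data known. Alternatives changed the score or width minimum, the annotation column, the unit, merging and the TSS reach. Values of 1 further marker gene are not reported here.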

Additional observations from a re-analysis of the deposited data

How the results depend on the processing

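Of 102 alternative values, 52 stayed within the interval of the value or within 1.5 times the count. Among these were all 14 that left out transcripts placed at more than 1 position in rn5, a setting chosen after seeing the data. All that used the basic annotation column were among these too, but they could not move, since both annotation columns are equal for all 1421 peaks. The gene count with 1 peak per gene (1110) was likewise fixed in advance. The order of the positions by median width (first above middle above last exons) held under the settings below with 2 exceptions, where last exons stood above middle ones: in the top 25% of scores (1219 against 1217 bp) and after merging (300 against 259 bp).
A minimum on score or width can only lower the counts. Since width and score rose together (Spearman rho 0.957), it also raises the medians and the share of wide peaks. The direction of these moves was set by the filter. With scores at or above the median, 855 peaks and 720 genes were left, 103 with 2 or more. Their median width was 743 bp and score 18.4, with 41.8% at least 1 kb wide and 18.1% containing the TSS. Middle exons had 337 peaks (704 bp), last exons 284 (568 bp), and first exons a median of 1263 bp.
In the top 25% of scores, 594 peaks and 532 genes were left, 51 with 2 or more, with medians of 1325 bp and 38.2, 60.1% at least 1 kb wide and 25.8% containing the TSS. First, middle, last and only exons had 123 (1808 bp), 229 (1217 bp), 179 (1219 bp) and 63 peaks.
Without peaks of the smallest width, 931 were left and 108 genes had 2 or more, with medians of 640 bp and 15.1, 38.3% at least 1 kb wide and 16.6% containing the TSS. Middle exons had 362 peaks (632 bp), last exons 318 (501 bp), and first exons a median of 1050 bp.
With the highest-scoring peak per gene, the medians were 353 bp and 8.46, 30.7% were at least 1 kb wide and 13.7% contained the TSS, with 268 bp in middle and 235 bp in last exons. Merging was done only among exon and UTR peaks within 1000 bp of each other, and no intron or other peaks were joined to them. It gave a median of 387 bp, with 32.5% at least 1 kb wide and 116 genes with 2 or more. The medians were then 300 bp in last exons and 259 bp in middle ones. A reach of 1000 bp put the TSS within 28.6% of peaks. Counting single-exon transcripts with both ends gave 314 first-exon peaks and a last-exon median of 228 bp, within 1 bp of the middle exons.
No paired analysis was possible because the list has no values per library, and replicates could not be left out for the same reason.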

Other observations

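Psmg2, which encodes a proteasome assembly chaperone, had 3 narrow peaks with high scores for their width. Its peaks in exon 5 (187 bp, score 19.4), exon 2 (150 bp, 15.5) and exon 6 (150 bp, 11.3) of 7 scored 104, 103 and 75.3 per kb, beside a median of 23.9 per kb over the exon and UTR peaks. The exon peak of Cdkn2a had 92.6 per kb at 189 bp. Of the 20 exon and UTR peaks with at least 60 per kb, these 4 were the only ones under 200 bp wide. Most of the others were broad domains, such as Ccno (81.5 per kb) and Olig3 (71.9 per kb). Some were class I histocompatibility genes, RT1-CE3 (1560 bp, 83.3 per kb), RT1-CE10 (63.8) and RT1-CE14 (61.6). These belong to a family of near-identical copies, to which reads may not map uniquely. The genes named here were chosen after their values were seen, and no cause was tested.

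Chromosomes differed in the share of peaks that lay in exons and UTRs, from 0.653% on chromosome 19 (23 of 3523) to 1.59% on chromosome 20 (49 of 3091) and 2.49% on X (32 of 1285), with gene density not adjusted for. The chromosomes are those of rn5, and 6 of the 32 peaks on X belong to genes that GRCr8 places on chromosome 7.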
